A study of Tetranychus urticae with 4 samples.

Results

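The carotenoid genes described here are the 5 genes that the study names as the complete set for carotenoid synthesis in the spider mite Tetranychus urticae. They are the fused lycopene cyclase/phytoene synthase genes tetur01g11260 and tetur11g04840 and the phytoene desaturase genes tetur01g11270, tetur11g04820 and tetur11g04810, where the digits before the g give the scaffold. They were found on the arrays by these identifiers, as 5 of 18217 genes with probes. The expression of each gene was compared between diapausing (DIA) and non-diapausing (NON-DIA) adult females of the LS-VL strain, a green colour morph in which only part of the females enter diapause. All females had developed from larvae at 17 °C and 80% relative humidity with 8 h of light and 16 h of darkness, so that both groups shared the strain and the rearing conditions. Diapausing females were collected by their deep orange colour, and each of the 4 samples per group was total RNA of a pool of whole females, with more females in the diapausing pools. A pool of whole females cannot tell a change in RNA per cell from a change in the share of the cells that express a gene.

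Carotenoids are yellow to red pigments that most animals take up with their food. Phytoene synthase joins geranylgeranyl diphosphate molecules to colourless phytoene, phytoene desaturase adds double bonds that turn phytoene into red lycopene, and lycopene cyclase closes the ends of lycopene into rings to give beta-carotene. In Mucorales fungi, cyclase and synthase are parts of 1 fused protein next to a separate desaturase. Spider mites and aphids carry genes of this fungal kind, which were acquired by horizontal gene transfer. According to the paper, it remains to be determined whether these genes are functional. In T. urticae the pigments colour the body, are involved in measuring day length, and are present as orange keto-carotenoids in diapausing females.

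Each of the 4 dual-colour arrays, all on 1 slide, carried a DIA sample in Cy5 and a NON-DIA sample in Cy3. As this orientation was never swapped, dye and diapause cannot be told apart in any ratio given here. The labels were checked on 6 vitellogenin genes, which encode egg yolk precursors of reproducing females. All 6 were lower in DIA, with log2 fold changes from -9.22 to -7.74, and their median log2 ratio per array was -9.91, -8.04, -9.22 and -5.44, so that replicate 4 stood apart. Without replicate 4 the log2 fold changes of the carotenoid genes were 2.86 (tetur01g11260), 2.52 (tetur01g11270), -0.89 (tetur11g04840), -5.00 (tetur11g04820) and -4.85 (tetur11g04810), close to those given below for all 4 arrays. The share of the 61657 gene spots that the scanner software marked as well above background was 69.2% to 72.1% in DIA and 67.2% to 69.5% in NON-DIA. Against the RNA spike-in controls, the log2 ratios were shifted by -0.03 and 0.13 on the arrays of slide column 1 (replicates 1 and 3) and by -0.74 and -0.81 on those of column 2 (replicates 2 and 4).

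Every carotenoid gene had 3 probes of its own, and none of these 15 probes listed another gene. The sequences of these probes were not used here. The reverse qPCR primers that the study designed for the neighbouring desaturase genes tetur11g04810 and tetur11g04820 are shown because they resemble each other. Gene sequences were not used here, so the primers do not measure how far the genes differ. Primers are written 5′ to 3′, and capitals mark the bases that differ where both were aligned without gaps.
tetur11g04810 reverse primer: gttcaatttctCgagctaaacAtTCTA
tetur11g04820 reverse primer: caatttctTgagctaaacGtGTCC
Of the 24 aligned bases, 18 were identical and 6 differed, 4 of them being the last 4 bases at the 3′ end. Whether RNA of 1 of these genes also hybridized to the array probes of the other was not tested.

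Expression of the carotenoid genes differed by scaffold. Both genes of scaffold 1 were higher in DIA, at 7.45-fold and 5.72-fold, and all 3 genes of scaffold 11 were lower. The fall was 1.83-fold for the cyclase/synthase gene. DIA signals of the desaturase genes tetur11g04820 and tetur11g04810 were at or near background. Their mean falls are therefore given with low DIA values raised to a floor, the lowest signal well above background on the array. These were 26.2-fold for tetur11g04820 and 7.23-fold for tetur11g04810 on the software's signals, and 7.27-fold and 2.65-fold on signals corrected by normexp. Each value holds only for its own background correction and floor, and is not a strict lower bound. A gene was called differentially expressed where its adjusted p was under 0.05 (limma, Benjamini-Hochberg over 14986 genes) and its mean change reached 2-fold, and by this rule 2 of the 5 genes were upregulated and 2 downregulated. Among all genes tested, 9.04% were upregulated and 9.10% downregulated by this rule. The remaining gene, tetur11g04840, passed the p-value threshold without reaching 2-fold. By the p-value alone all 5 genes passed, as did 64.8% of all genes, 37.7% as higher and 27.0% as lower in DIA. All 5 also had the same direction on the 4 arrays, which held for 73.7% of all genes. The median log2 fold change of the 5 genes was -0.87 and their median absolute log2 fold change 2.90, against 0.10 and 0.41 over all genes tested.

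**Figure D1:**
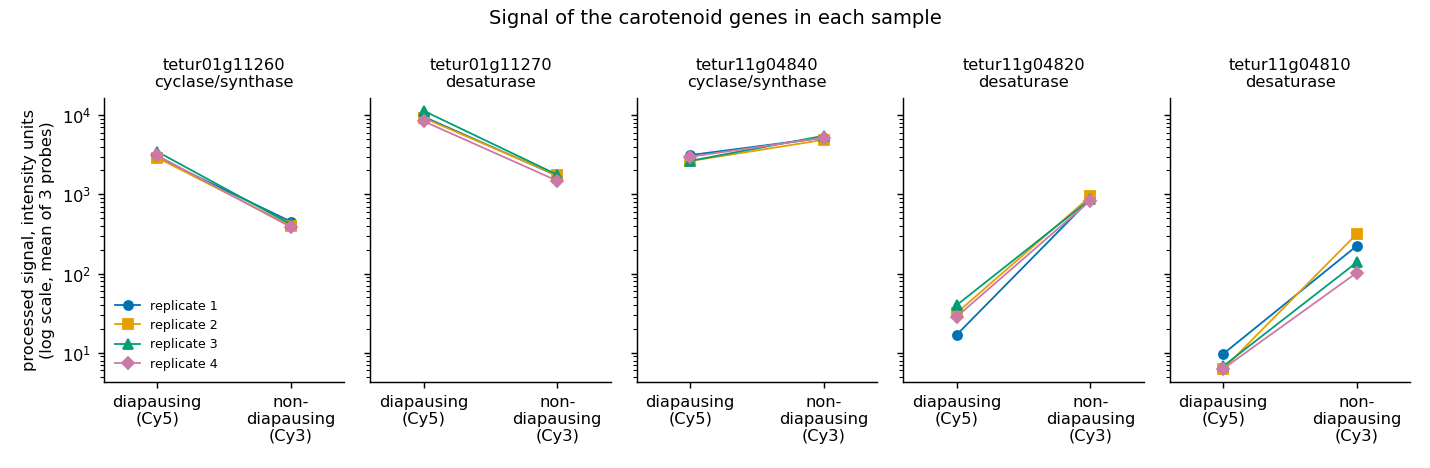
Processed signal of each carotenoid gene (intensity units on a log axis, geometric mean of 3 probes) in the 4 DIA samples (Cy5, left) and the 4 NON-DIA samples (Cy3, right), with a line joining the samples of 1 array. The lines of tetur01g11260 and tetur01g11270 are higher at DIA, those of the scaffold 11 genes are lower at DIA, and the NON-DIA samples of tetur11g04810 spread from 103 to 317.

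The cyclase/synthase gene tetur01g11260 is named for a fusion of the enzymes that make phytoene and close the rings of lycopene. It had signals of 2924, 2902, 3459 and 3105 in DIA replicates 1 to 4. In NON-DIA its signals were 454, 401, 420 and 386. Every DIA sample was above every NON-DIA sample, which was the case for 33.5% of all genes tested. Relative to NON-DIA, tetur01g11260 had a mean log2 ratio of 2.90 ± 0.16 (SD, n = 4; limma adjusted p = 5.31e-05), a fold change of 7.45, with a 95% confidence interval of 2.69 to 3.11 on the log2 scale. The 3 probes, numbered here by their names on the array, gave log2 fold changes of 3.05, 2.49 and 3.16, and each was called in a fit over 40349 probes, of which 8.78% were upregulated. The second probe, with the smallest change, had signals of 8410 to 11156 in DIA and 1650 to 1791 in NON-DIA.

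Its paralog tetur11g04840, the other fused cyclase/synthase gene, changed in the opposite direction and by much less. In DIA its signals were 3126, 2633, 2646 and 2979, and in NON-DIA they were 5176, 4878, 5483 and 5195. The groups did not overlap, with DIA below NON-DIA as for 24.7% of all genes. For tetur11g04840 the mean log2 ratio was -0.87 ± 0.14 (SD, n = 4; limma adjusted p = 0.000637), which is 1.83-fold lower in DIA, with a 95% confidence interval of -1.06 to -0.67. This interval includes a change of 2-fold. Array 3 alone, at -1.05, was past 2-fold, and the other arrays were at -0.73, -0.89 and -0.80. Its probes agreed closely, at -0.88, -0.84 and -0.89, and none of the 3 was called.

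**Figure D2:**
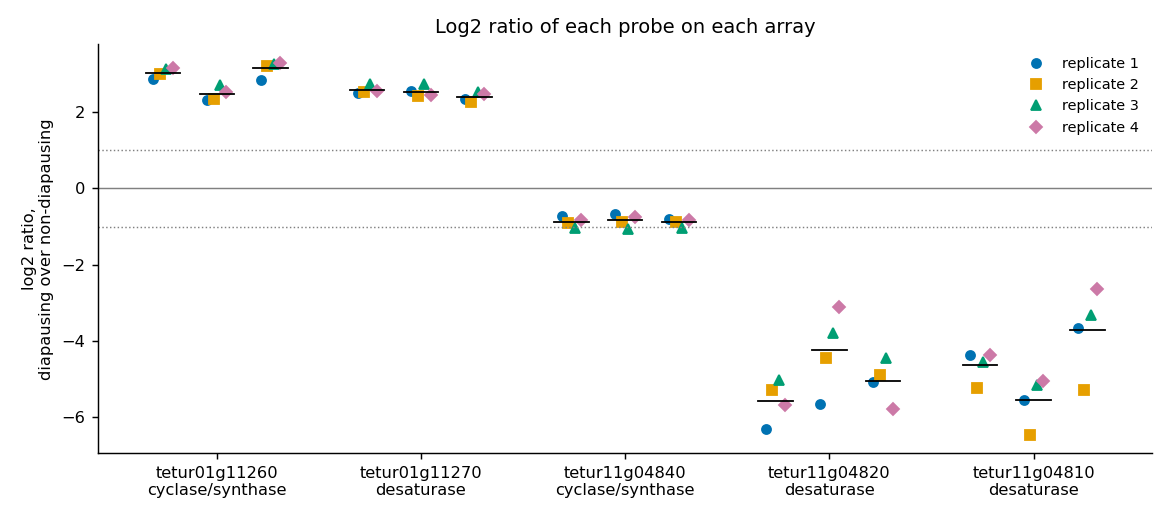
Log2 ratio (DIA over NON-DIA) of each of the 3 probes of every carotenoid gene on each of the 4 arrays, with a bar at the mean of the arrays and dotted lines at 2-fold. The probes of tetur11g04840 lie within 0.05 of each other on average, while those of tetur11g04820 and tetur11g04810, with DIA signals at or near background, spread over 1.33 and 1.83.

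Among the desaturase genes, named for the enzyme that carries phytoene to lycopene, tetur01g11270 was the upregulated one. It is the neighbour of tetur01g11260 in the order of identifiers. Its signals were 9531, 9207, 11310 and 8359 in DIA and 1713, 1735, 1767 and 1480 in NON-DIA, so that the lowest DIA sample was far above the highest NON-DIA sample. The mean log2 ratio of tetur01g11270 was 2.52 ± 0.12 (SD, n = 4; limma adjusted p = 5.12e-05), a fold change of 5.72, with a 95% confidence interval of 2.34 to 2.69. All 3 of its probes were called, at 2.59, 2.55 and 2.41. When limma's treat was used to ask whether the change exceeded 2-fold, both scaffold 1 genes were again called, with adjusted p values of 0.000165 for tetur01g11260 and 0.000195 for tetur01g11270, a test that called 7.76% of all genes.

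The desaturase gene tetur11g04820 was strongly lower in DIA. In DIA its signals were 16.9, 31.9, 40.1 and 28.6, and in NON-DIA they were 873, 940, 864 and 835. NON-DIA samples thus lay close together, and DIA samples were near the background. Of the 12 DIA values (3 probes on 4 arrays), 6 were well above background, namely none on replicate 1, 3 on replicate 2, 2 on replicate 3 and 1 on replicate 4. The mean log2 ratio of tetur11g04820 was -4.97 ± 0.52 (SD, n = 4; limma adjusted p = 0.000104), which is 31.3-fold lower in DIA on the software's ratios. Every DIA value below the lowest signal well above background on its array was then raised to that signal (4 of 12). With this, the gene was 26.2-fold lower on the software's signals. Values of 31.2 on replicate 1 and 31.3 on replicate 3 were not well above background but exceeded the floor and stayed as measured. The fold is therefore not a strict lower bound. The same calculation gave 7.27-fold on signals corrected by normexp with an offset of 50. On the 6 spots measured above background in both channels, the fall ranged from 8.68-fold to 39.0-fold. Their median log2 ratio, -4.46, was a smaller fall than 26.2-fold, which is for the mean over all 12 values. The size of the fall of tetur11g04820 depended on the background correction, and after normexp and loess it was -2.87 on the log2 scale, still called.

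For tetur11g04810, the third desaturase gene, no DIA spot was well above background, whereas all 12 NON-DIA spots were. Its signals were 9.71, 6.26, 6.80 and 6.30 in DIA, below the lowest signals counted as well above background on these arrays. In NON-DIA they were 224, 317, 139 and 103. With each DIA value raised in the same way, to floors of 21.5 to 28.0, the gene was 7.23-fold lower in DIA on the software's signals. This fall was 2.65-fold on signals corrected by normexp. In the fit on the software's ratios tetur11g04810 had an adjusted p of 0.000239 (limma) and was called, and its log2 ratios of -4.53, -5.66, -4.35 and -4.03 on replicates 1 to 4 were the lower the higher its NON-DIA signal was. As in tetur11g04820, all 3 of its probes were called, where 9.53% of all probes were downregulated. The probes of tetur11g04810 were kept for testing through their NON-DIA signals alone, so their calls as lower in DIA add little.

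NON-DIA samples differed more in tetur11g04810 than in the other carotenoid genes. The highest NON-DIA sample was 3.09-fold above the lowest, against 1.12-fold to 1.19-fold in the other 4 genes. Each of the 3 probes was highest in replicate 2 and lowest in replicate 4, at 483 and 174 for the first, 381 and 162 for the second and 174 and 38.4 for the third. The neighbouring tetur11g04820 did not share this spread, as its NON-DIA signals had an SD of 0.07 on the log2 scale against 0.72 for tetur11g04810.

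Paralogs were also set against each other within each array, by the difference of their log2 ratios. The ratio of tetur01g11260 exceeded that of tetur11g04840 by 3.42, 3.74, 4.09 and 3.81 on replicates 1 to 4, a mean of 3.77 ± 0.28 (SD, n = 4). The desaturase gene tetur01g11270 had a higher ratio than tetur11g04820 and tetur11g04810 on every array, and the size of these differences is not given because the DIA signals of both scaffold 11 genes were at or near background. The scaffold 1 genes were much closer to each other, with tetur01g11260 above tetur01g11270 by 0.38 ± 0.13 (SD, n = 4) and on every array. That order was turned round when only the brightest probe of each gene was used, with 2.49 for tetur01g11260 and 2.55 for tetur01g11270. Of 5 such pairs compared, 4 had the same sign on all arrays and an exact two-sided sign-flip permutation p of 0.125, the smallest that 4 arrays allow, and 0.156 after Benjamini-Hochberg adjustment. The fifth pair, tetur11g04820 against tetur11g04810, does not show which of them fell more, since background limits both ratios.

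**Figure D3:**
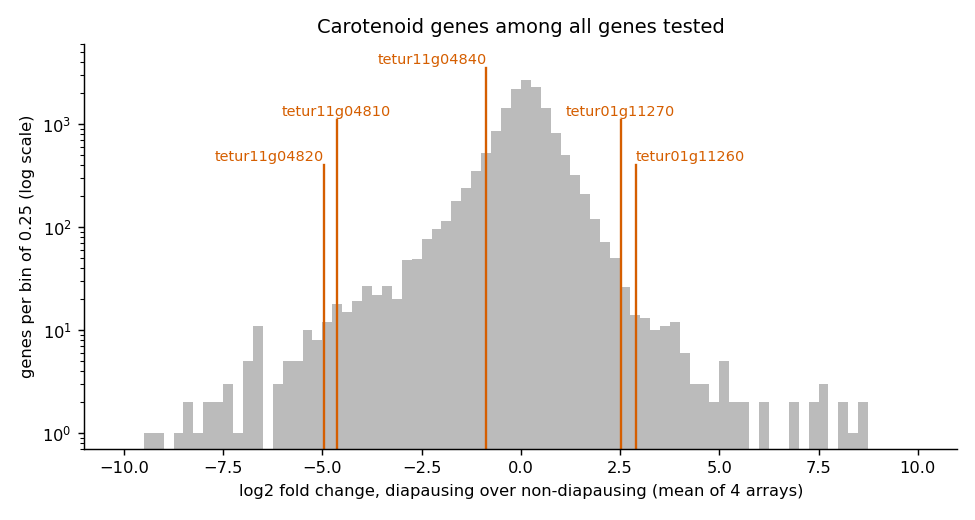
Number of genes (log axis) by log2 fold change, DIA over NON-DIA, for the 14986 genes tested, with the 5 carotenoid genes as lines. The values of tetur01g11260 (2.90) and tetur01g11270 (2.52) lie in the upper tail, tetur11g04840 (-0.87) lies near the bulk, and tetur11g04820 (-4.97) and tetur11g04810 (-4.64) lie in the lower tail, where DIA signals at or near background limit the size.

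Genes next to the carotenoid genes in the order of identifiers, the nearest 5 on each side and those in between, were examined, 10 on scaffold 1 and 11 on scaffold 11. None of them was upregulated. On scaffold 1, 7 were tested, of which 2 were downregulated (tetur01g11220 and tetur01g11230), and their log2 fold changes ranged from -1.73 to 0.34. The 3 genes that follow tetur01g11270 directly (tetur01g11280, tetur01g11290 and tetur01g11300) were too dim to be tested, and tetur01g11240 on the other side was at -0.02. On scaffold 11, 9 were tested and 1 was downregulated, the gene tetur11g04780 at -1.13 ± 0.14 (SD, n = 4; limma adjusted p = 0.000311). The gene tetur11g04800, which precedes tetur11g04810, was at 0.46 ± 0.08 (SD, n = 4; limma adjusted p = 0.00251) and did not reach 2-fold. Between tetur11g04820 and tetur11g04840 lies tetur11g04830, all 3 probes of which were too dim to be kept, as were those of tetur11g04850 on the other side. Across all genes tested, 18.1% were called in either direction, and of these 16 neighbours 3 were.

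**Figure D4:**
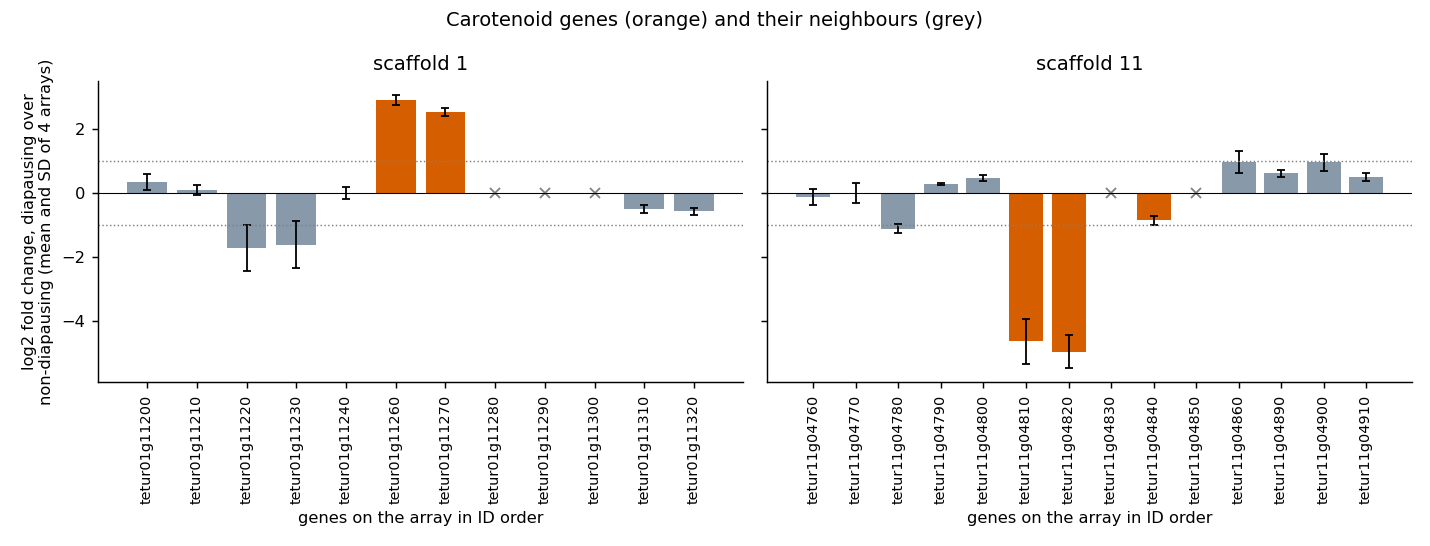
Log2 fold change (mean of 4 arrays, error bars SD) of the carotenoid genes (orange) and of the genes around them (grey) in the order of identifiers on scaffolds 1 and 11, with crosses at genes too dim to be tested and dotted lines at 2-fold. On both scaffolds the bars of tetur01g11260, tetur01g11270, tetur11g04820 and tetur11g04810 reach beyond all neighbours shown.

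Downstream of beta-carotene, the cytochrome P450 CYP384A1 (tetur38g00650) is required in T. urticae for making keto-carotenoids. Signals of CYP384A1 were 2470, 2100, 2370 and 2410 in DIA and 891, 760, 820 and 673 in NON-DIA, without overlap. It was upregulated 2.98-fold, with a mean log2 ratio of 1.58 ± 0.18 (SD, n = 4; limma adjusted p = 0.000191) over its 6 probes, none of which is shared with another gene. On the 4 arrays its log2 ratios were 1.47, 1.47, 1.53 and 1.84. On each array these were below the ratios of tetur01g11260 and tetur01g11270, a difference that was not tested. Carotenoid oxygenases cleave carotenoids such as beta-carotene. The gene tetur06g06440 of this family, chosen after its values were known because the study names it, had signals of 3403, 3238, 2819 and 2960 in DIA and 8936, 8584, 9267 and 9314 in NON-DIA. It was downregulated 2.91-fold, with a mean log2 ratio of -1.54 ± 0.17 (SD, n = 4; limma adjusted p = 0.000188). Other genes of the pathway were not analysed here.

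The genes whose 4 array log2 ratios lay nearest to those of a carotenoid gene were found by Euclidean distance over the 4 arrays, among 14107 genes with at least 2 probes of their own. For tetur01g11260 they were tetur40g00391 at a distance of 0.21 and tetur20g01230 at 0.26. Nearest to tetur01g11270 were tetur33g00340 at 0.24 and tetur30g01800 at 0.26. For each of these 2 carotenoid genes, 8 genes lay within a distance of 0.5. Around tetur11g04840 506 genes lay within that distance, the nearest being tetur11g04710 at 0.05 and tetur05g07380 at 0.06. The nearest to tetur11g04820 were tetur03g09300 at 0.33 and tetur25g01900 at 0.46. As part of the DIA values of tetur11g04820 are not above background, its distances are the less certain, and none are given for tetur11g04810, which was at background in all DIA samples. The distances describe 4 arrays only.

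The arrays of the 2 slide columns gave similar values for the carotenoid genes on the software's ratios. These ratios had been corrected for the dyes within each array, so their similarity cannot show whether the shift against the spike-in controls matters. Scaling to these controls subtracts -0.03 and 0.13 on the arrays of column 1 and -0.74 and -0.81 on those of column 2. It thus moves column 2 up against column 1. The mean log2 ratio of tetur01g11260 was 2.87 in column 1 and 2.93 in column 2, and for tetur01g11270 it was 2.58 and 2.45. For tetur11g04840 the column means were -0.89 and -0.85, for tetur11g04820 -5.06 and -4.87, and for tetur11g04810 -4.44 and -4.85. Slide rows differed more for the 2 dim desaturase genes, at -5.28 in row 1 and -4.65 in row 2 for tetur11g04820 and at -5.10 and -4.19 for tetur11g04810. When each array was scaled to its spike-in controls, the median of all genes moved to 0.47, and the values were 3.26 for tetur01g11260, 2.88 for tetur01g11270, -0.51 for tetur11g04840, -4.60 for tetur11g04820 and -4.28 for tetur11g04810. Against 0 as against that median, the means of all 5 genes kept their direction. In the test against 0, tetur11g04840 no longer passed the p-value threshold (limma adjusted p = 0.160). On the column 2 arrays its ratios before scaling were -0.89 (replicate 2) and -0.80 (replicate 4), about as large as the shifts taken off there. Little of its fall therefore remained on replicate 2, and none on replicate 4.

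**Figure D5:**
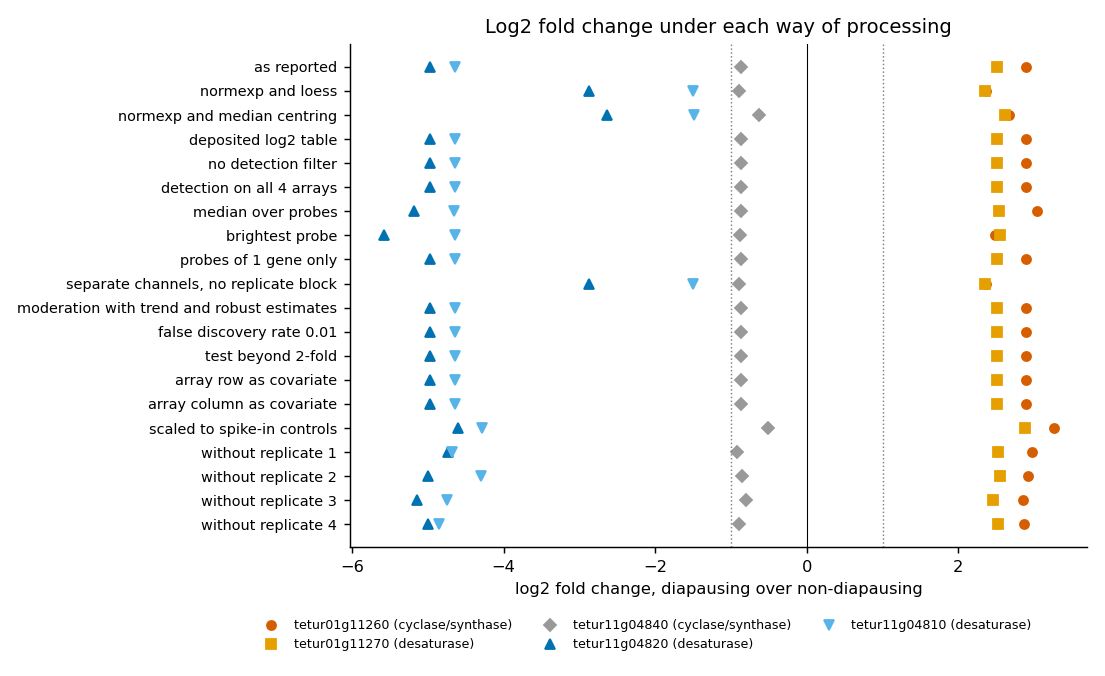
Log2 fold change (DIA over NON-DIA) of the 5 carotenoid genes as reported and under each of the 19 other ways of processing, with dotted lines at 2-fold. Many settings leave the values exactly as reported. No gene changes side of 0 or of the 2-fold lines, and the largest shifts are those of tetur11g04820 to -2.64 and tetur11g04810 to -1.49 after normexp and median centring.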

How the data were processed

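Gene expression of diapausing and non-diapausing females was compared on 4 dual-colour arrays. Hybridization and scanning were done by the authors, who read the spots with Agilent Feature Extraction (version 10.7.1.1 per the file headers). The deposited intensity values are the median signal and local background of each spot and a processed signal, which the software had corrected for background, for spatial trends and for the dyes within each array. The deposited log10 ratio of processed Cy5 over Cy3 signal was converted to log2. A second deposited table of log2 values by the authors differed by less than 0.001 from these ratios in all 60 values of the carotenoid probes. Its other values are log2 ratios of the same scale and direction, except where the software's ratio is 0, and its column medians are 0.02, -0.06, -0.03 and -0.09.

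Control spots and spots marked as outliers were left out, which concerned no carotenoid probe, and no gene spot was saturated. A probe was kept if at least 2 arrays had it well above background in either channel (40349 of 56184 probes), which includes all 15 carotenoid probes. Their log2 ratios were averaged per gene and tested against 0 with limma 3.58.1 (R 4.3.3; files were read by data.table, release 1.17.8) and Benjamini-Hochberg adjustment over 14986 genes. A test on simulated data with changed genes was run first. Signals given per sample are geometric means of the processed signal over the probes of a gene, and the scale differs between probes, so that levels of different genes were not compared. Falls with DIA values raised to the floor come from the separate channels after Aquantile normalization. The paper states that the RNA came from a single population and describes no separate cultures for the pools. The p-values thus measure the spread between these 4 arrays, not between independent inductions of diapause. The number of arrays limits the precision. Plots used matplotlib 3.10.9 under Python 3.11.15, beside pandas 2.3.3 and numpy 2.4.6.

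The genes named are the 5 carotenoid genes, their neighbours, CYP384A1, and the 2 nearest genes by distance of each except tetur11g04810, whose DIA signals were at background. The carotenoid oxygenase gene tetur06g06440 was added after its values were known. The members, lists and tests were chosen with earlier results of these data known. Alternatives were normexp with loess or median centring, the deposited table, other detection filters, the median or brightest probe, probes of 1 gene, separate channels, other moderation or thresholds, slide row or column as covariate, scaling to spike-in controls and leaving out each replicate. The normexp scale of the falls with the floor was chosen after seeing the data. The qPCR of the study was not analysed here.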

Additional observations from a re-analysis of the deposited data

Results flagged for a closer look

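In groups of 4 values, a highest or lowest value far from the other 3 was looked for in 58 groups, namely the ratios and signals of each carotenoid gene, the ratios of its probes, and the ratios of the neighbours, of both other pathway genes and of the genes nearest in pattern. Of these, 3 (5.17%) had one, where chance gives about 5%. None of them was a carotenoid gene or probe. The neighbour tetur11g04800 had a log2 ratio of 0.33 on replicate 3 and 0.48 to 0.51 on the others. Of the genes nearest in pattern, tetur33g00340 had 2.34 on replicate 1 and 2.53 to 2.55 on the others, and tetur03g09300 had -5.63 on replicate 1 and -4.66 to -4.50 on the others.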

How the results depend on the processing

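Under the 19 alternatives, which include leaving out each replicate, all 5 carotenoid genes kept their direction and their side of the threshold, so that 2 genes were upregulated and 2 downregulated in each. Many of these left the log2 fold changes of the 5 genes exactly as reported and so say nothing more about their direction. They were the deposited table, the other detection filters, probes of 1 gene, other moderation or thresholds, and slide row or column as covariate. Leaving out 1 replicate gave log2 fold changes of 2.85 to 2.97 for tetur01g11260, 2.46 to 2.55 for tetur01g11270, -0.91 to -0.81 for tetur11g04840, -5.14 to -4.73 for tetur11g04820 and -4.85 to -4.30 for tetur11g04810. The other alternatives gave 2.36 to 3.26 for tetur01g11260, 2.35 to 2.88 for tetur01g11270, -0.89 to -0.51 for tetur11g04840, -5.58 to -2.64 for tetur11g04820 and -4.65 to -1.49 for tetur11g04810. Without the pairing of the channels on an array (no replicate block), the values equalled those after normexp and loess, with -2.87 for tetur11g04820 and -1.50 for tetur11g04810. Over all genes, the alternatives called 337 to 2788 genes upregulated and 603 to 1391 downregulated, against 1355 and 1364. The share of upregulated genes among those called, 49.8%, was 75.4% after scaling to spike-in controls (2788 up and 912 down), 29.5% after normexp and loess (337 and 804) and 39.1% in the test beyond 2-fold (455 and 708), and normexp with median centring gave 644 and 603. The falls with low DIA values raised to the floor were 26.2-fold for tetur11g04820 and 7.23-fold for tetur11g04810. On the normexp scale, an alternative chosen after seeing the data, they were 7.27-fold and 2.65-fold. Signal over background limits the size of the fall of tetur11g04820 and tetur11g04810 in DIA.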

Other observations

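The spread of tetur11g04810 among the 4 NON-DIA samples, an SD of 0.72 on the log2 scale, was reached or exceeded by 1.8% of all genes tested, whose median was 0.12. For the other 4 carotenoid genes between 52.5% and 77.7% of all genes had a NON-DIA spread at least as large. Among genes of similar NON-DIA level only (log2 window of 0.5), the share was 0.677% for tetur11g04810 and 27.1% (tetur01g11270) to 70.8% (tetur11g04820) for the other 4. The pattern over replicates was seen after the values were known and its cause was not tested.

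Among the neighbours, tetur01g11220 had log2 ratios of -1.79, -2.38 and -2.03 on replicates 1 to 3 and -0.73 on replicate 4, and tetur01g11230 had -1.69, -1.93, -2.28 and -0.59. The vitellogenin genes were likewise less low on replicate 4, with a median of -5.44. The scaffold 1 carotenoid genes did not differ on that array, at 3.01 for tetur01g11260 and 2.50 for tetur01g11270. On scaffold 11, tetur11g04840 at -0.80 and tetur11g04820 at -4.87 lay within the range of their other arrays. The ratio of tetur11g04810 was least low on replicate 4, at -4.03, with its DIA signals at background on every array.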
